A study of Arabidopsis thaliana with 24 samples.

Results

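The circadian clock genes described here are 10 loci of Arabidopsis thaliana, chosen by name and found by locus identifier among the 34218 features of the count table. They are CCA1 (AT2G46830), LHY (AT1G01060), RVE8 (AT3G09600) and PRR9 (AT2G46790) of the morning, PRR7 (AT5G02810) and PRR5 (AT5G24470) of the day, and TOC1 (AT5G61380), GI (AT1G22770), LUX (AT3G46640, named PCL1 in RefSeq) and ELF4 (AT2G40080) of the evening. These phase names are background knowledge from plants sampled around the clock and were not measured here. All 10 genes had counts in each of the 24 libraries, passed the filter on low counts and were tested.

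Roots of 5-day-old seedlings were sampled after 8 h on plates with 1 µM abscisic acid (ABA), the hormone of drought and osmotic stress, or on mock plates. All plants were F1 offspring of a line carrying UAS::abi1-1, a transgene for a dominant mutant form of the phosphatase ABI1 that blocks ABA signalling in the cells that make it. That line was crossed to the enhancer trap lines J0571, J1721 or Q0990, which supply the activator of the transgene in the cells of each trap, or to C24, an accession without a driver in which the transgene stays silent. Each of the 8 groups, J0571 ABA, J0571 mock, J1721 ABA, J1721 mock, Q0990 ABA, Q0990 mock, C24 ABA and C24 mock, held 3 pools of 50 to 100 seedlings. J0571 is widely used as a driver of the ground tissue and Q0990 of the stele, but the labels name no cells for any line. Days had 16 h of light at 22 °C and 8 h of darkness at 20 °C. The labels give neither the hour of sampling nor whether the pools of a group were grown separately, so the levels cannot be placed on the daily cycle, and the spread behind each p-value is that between pools, which may be technical.

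The plant clock is a loop of transcription factors that repress and activate each other at successive times of day. CCA1 and LHY, a pair of closely related MYB factors made around dawn, repress the evening genes by binding a motif called the evening element, and the MYB factor RVE8 activates genes through the same motif in the afternoon. The pseudo-response regulators PRR9, PRR7, PRR5 and TOC1 act one after the other as repressors of CCA1 and LHY. ELF4 and LUX form the evening complex with ELF3, and GI helps to control the breakdown of TOC1 by the F-box protein ZTL. TOC1 and LHY are also known for links with ABA responses in leaves, and roots have a clock that is coupled to the shoot.

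The sequences before the start of transcription bear on both clock and ABA control. The ABA-responsive element (ABRE) is the site of the bZIP factors of the ABA pathway, and its core is contained in the G-box, which other bZIP and basic helix-loop-helix factors share. The 250 bases before the annotated start of each gene were read from the RefSeq genome and annotation of assembly TAIR10.1 by locus identifier, with all 10 genes matched. That genome is of the Columbia accession and not of C24, and the build behind the counts is not given in the sources used here. Promoters of 5 genes are shown 5′ to 3′ in the direction of the gene: CCA1, LHY and LUX, which hold an ABRE match and passed the test of the ABA response in at least 1 line, and PRR9 and TOC1, which hold an ABRE match and passed it in none. Capitals mark matches to any of the searched motifs: ABRE (ACGTGGC or ACGTGTC), G-box (CACGTG), evening element (AAAATATCT), CCA1-binding site (AAAAATCT) and LUX-binding site (GATACG or GATTCG), on either strand.
CCA1: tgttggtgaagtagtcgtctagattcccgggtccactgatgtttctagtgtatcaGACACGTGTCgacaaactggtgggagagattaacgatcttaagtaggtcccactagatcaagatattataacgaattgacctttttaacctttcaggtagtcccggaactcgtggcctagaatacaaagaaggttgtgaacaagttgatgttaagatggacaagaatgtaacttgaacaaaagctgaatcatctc
LHY: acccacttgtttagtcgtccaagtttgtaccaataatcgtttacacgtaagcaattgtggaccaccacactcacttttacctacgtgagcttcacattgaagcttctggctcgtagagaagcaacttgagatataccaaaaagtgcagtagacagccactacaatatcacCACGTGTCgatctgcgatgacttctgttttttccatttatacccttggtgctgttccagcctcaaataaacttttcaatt
LUX: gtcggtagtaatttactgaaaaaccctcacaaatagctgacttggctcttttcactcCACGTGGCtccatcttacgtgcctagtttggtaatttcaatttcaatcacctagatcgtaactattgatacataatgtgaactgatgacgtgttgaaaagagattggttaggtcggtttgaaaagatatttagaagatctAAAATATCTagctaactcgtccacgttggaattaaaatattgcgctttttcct
PRR9: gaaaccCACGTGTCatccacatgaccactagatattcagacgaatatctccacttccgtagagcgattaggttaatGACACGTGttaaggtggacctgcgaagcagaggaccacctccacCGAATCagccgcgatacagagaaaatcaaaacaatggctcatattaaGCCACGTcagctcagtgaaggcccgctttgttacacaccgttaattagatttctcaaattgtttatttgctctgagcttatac
TOC1: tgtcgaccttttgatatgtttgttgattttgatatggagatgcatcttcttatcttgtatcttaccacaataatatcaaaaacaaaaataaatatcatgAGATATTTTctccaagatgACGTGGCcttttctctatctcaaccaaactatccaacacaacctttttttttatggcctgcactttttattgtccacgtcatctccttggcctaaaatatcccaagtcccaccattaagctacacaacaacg

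These windows lie at chr2:19245341-19245590 on the plus strand for CCA1, chr1:37872-38121 on the minus strand for LHY, chr3:17182792-17183041 on the plus strand for LUX, chr2:19232357-19232606 on the plus strand for PRR9 and chr5:24674713-24674962 on the plus strand for TOC1 (TAIR10.1). An ABRE match was present in 6 of the 10 promoters, against 6.39% of the 27443 protein-coding promoters of the same length. Besides the 5 shown, PRR7 held 1, and it passed the test of the ABA response in no line. RVE8, which passed in 3 lines, and ELF4, which passed in 2, held no ABRE match. In CCA1 the ABRE letters occur on both strands of 1 palindrome, from 195 to 186 bases before the start. In LHY the match ends 73 bases before the start, in LUX it ends 186 bases before it and in TOC1 126 bases before it. PRR9 held 3 ABRE matches, more than any other of the 10. A G-box was found in 5 promoters (CCA1, LHY, PRR9, PRR7 and LUX), against 6.49% of all, and in each of these it overlaps an ABRE match. The evening element was found in 3 (PRR5, TOC1 and LUX), against 2.36%, the CCA1-binding site in PRR5, against 6.69%, and the LUX-binding site in PRR9 and ELF4, against 12.1%. RVE8 and GI held none of the 5 motifs in this window. A match is a run of letters, and binding was not measured.

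Library totals ran from 38542817 to 61555387 counts. ABA and mock libraries fell on opposite sides of the main axis of variation, which carried 50.4% of the variance. Along the next axis (5.6%), mock library 1 of each line lay away from the other two, for example at 43.9 against 4.46 and 9.22 in C24, so calls on the clock genes that change without these libraries are given both ways. ABI1 had a level of 268.7 to 412.2 CPM (counts scaled to library size) in ABA libraries and 93.7 to 116.7 CPM in mock libraries. RD29B, a classic ABA marker, had 153.3 to 484.5 CPM in ABA libraries and 0.0404 to 1.05 CPM in mock libraries. The 6 root markers summed to 304.6 to 366.4 CPM with ABA and 306 to 345.1 CPM in mock. The 6 shoot markers summed to 6.27 to 14.3 CPM with ABA and 7.64 to 29.5 CPM in mock. Among the shoot markers, the stomatal gene FAMA had 0 counts in all 24 libraries, and the meristem gene STM had 0 in 8 of 12 ABA and 11 of 12 mock libraries. In the average response the shoot markers RBCS1A and LHCA1 fell by 0.80 ± 0.20 and 0.49 ± 0.11 on the log2 scale, and CASP1, COBL9 and MYB36 rose and SCR and SHR fell among the root markers, by 0.20 or less in size (adjusted p of 0.0448 or less for each by edgeR). The fall was uneven between lines by point estimate. In J0571 RBCS1A averaged 7.61 ± 1.68 CPM with ABA and 7.55 ± 2.05 CPM in mock (SD, n = 3 each), whereas in C24 it averaged 5.97 ± 1.28 CPM with ABA and 13.2 ± 7.86 CPM in mock. Its log2 change was -0.79 in J1721 and -1.26 in Q0990. No driver line passed for a difference from C24 in that response, with an adjusted p of 0.614 by edgeR in J0571. The part of these shifts in the results below was not tested.

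Per kilobase of merged RefSeq exons, the genes of the evening were far more abundant than those of the morning in every library. ELF4, a small protein of the evening complex with a short transcript, lay highest, at a median of 274.5 CPM per kilobase over the 12 ABA libraries and 320.2 over the 12 mock libraries. TOC1 followed at 41.1 with ABA and 37.9 in mock. PRR5 had medians of 22.9 CPM per kilobase with ABA and 21.3 in mock, LUX 21.0 with ABA and 18.4 in mock, and GI 16.1 with ABA and 16.6 in mock. PRR7 lay lower, at 3.57 with ABA and 3.06 in mock. The morning genes had the lowest medians of all. RVE8 had medians of 2.61 CPM per kilobase with ABA and 1.69 in mock, CCA1 2.44 with ABA and 0.357 in mock, LHY 1.21 with ABA and 0.51 in mock, and PRR9 0.615 with ABA and 0.663 in mock. No library put a morning gene above 3.73 CPM per kilobase or an evening gene under 12.8. Behind the lowest levels stand 27 to 66 counts of CCA1 in mock libraries and 29 to 92 counts of PRR9 in ABA libraries, whereas ELF4 had 6107 to 11292 counts over all libraries.

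The morning genes carried most of the change with ABA. CCA1 rose about 5- to 8-fold in all 4 lines, LHY and RVE8 rose in 3 lines each, and PRR9 passed the test in none. LUX, of the evening, rose by a small amount in Q0990 and C24, and ELF4 fell by a small amount in J1721 and Q0990. A gene passed the test at an adjusted p under 0.05, from edgeR's quasi-likelihood test with adjustment over 21315 genes (Benjamini-Hochberg). In J0571 2 of the 10 clock genes passed, both higher, against 24.3% of all genes (14.4% higher and 9.87% lower). In J1721 3 were higher and 1 lower, against 28.6% (15.8% higher and 12.7% lower). In Q0990 4 were higher and 1 lower, against 31.2% (17.0% higher and 14.2% lower). In C24 3 passed, all higher, against 34.0% (18.6% higher and 15.4% lower). For the ABA response averaged over the 4 lines, CCA1, LHY, RVE8 and LUX were higher and ELF4 lower, 5 of 10 against 55.2% of all genes (27.6% higher and 27.6% lower). These counts lie on both sides of the shares over all genes. The median log2 change of the 10 genes was 0.08 in J0571, 0.11 in J1721, 0.21 in Q0990 and 0.10 in C24, beside medians over all genes of 0.01 in J0571, -0.01 in J1721, -0.01 in Q0990 and -0.02 in C24.

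**Figure D1:**
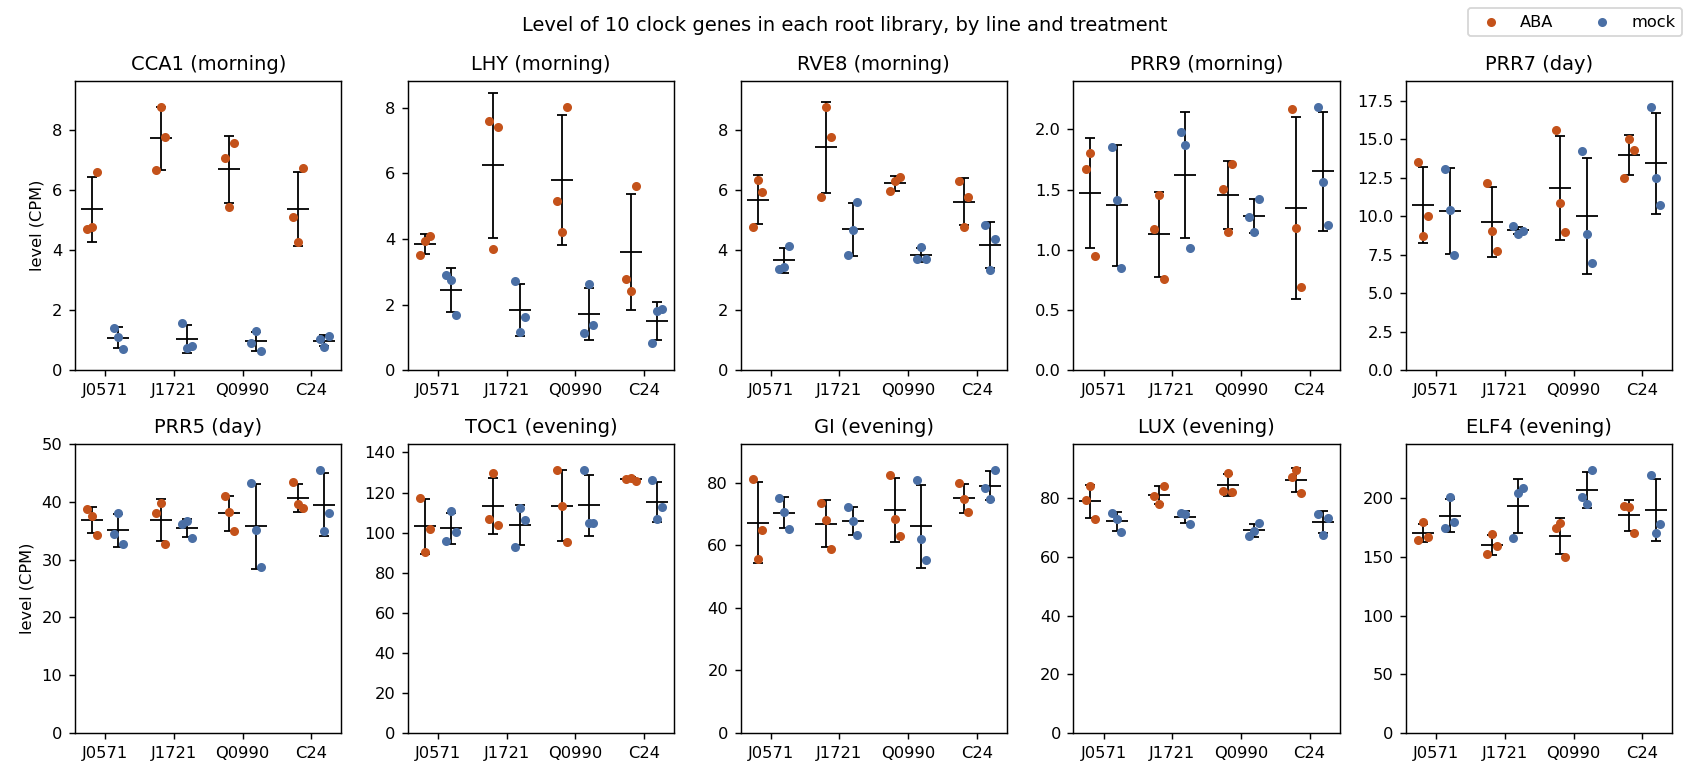
Level of each clock gene in CPM (linear axes from 0, a separate scale per gene) in each of the 24 libraries, by line, with ABA left of mock. Bars give the mean and standard deviation of 3 libraries. The CCA1 points with ABA, at 4.28 to 8.74 CPM, all lie above the mock points, at 0.651 to 1.57 CPM.

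CCA1, one of the MYB repressors of the dawn, had the largest change of the 10 genes in every line. In J1721 it had 6.65, 8.74 and 7.75 CPM with ABA, against 1.57, 0.723 and 0.794 CPM in mock. In Q0990 the levels were 7.07, 5.42 and 7.56 CPM with ABA and 0.916, 1.3 and 0.651 CPM in mock. Every ABA library of a line was above every mock library of that line, and this held across lines as well. J0571 had 4.7, 4.76 and 6.61 CPM with ABA, against 1.42, 1.12 and 0.707 CPM in mock, and C24 had 5.09, 4.28 and 6.72 CPM with ABA, against 1.03, 0.784 and 1.13 CPM in mock. The log2 change was 2.92 ± 0.28 in J1721 (SE, adjusted p = 1.69e-08 by edgeR), 2.80 ± 0.29 in Q0990 (3.88e-08), 2.32 ± 0.28 in J0571 (7.49e-07) and 2.45 ± 0.29 in C24 (2.80e-07). CCA1 was thus 7.57-fold higher with ABA in J1721, 6.95-fold in Q0990, 4.99-fold in J0571 and 5.47-fold in C24. Averaged over the lines CCA1 was 6.16-fold higher, with a log2 change of 2.62 and a 95% interval of 2.33 to 2.91. In bulk roots, more cells that make a transcript and more transcript per cell cannot be told apart.

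LHY, the partner of CCA1, changed in the same direction with a wider spread between pools. J1721 had 7.61, 3.7 and 7.41 CPM with ABA, against 2.71, 1.17 and 1.61 CPM in mock, and Q0990 had 5.16, 4.22 and 8.01 CPM with ABA, against 1.14, 2.63 and 1.38 CPM in mock. The log2 change was 1.78 ± 0.38 (adjusted p = 7.93e-04 by edgeR) in J1721 and 1.76 ± 0.38 (adjusted p = 9.26e-04) in Q0990. In both lines the ABA and mock pools did not overlap. In C24 the levels were 2.78, 2.41 and 5.62 CPM with ABA and 0.828, 1.81 and 1.85 CPM in mock, a log2 change of 1.25 ± 0.39 (adjusted p = 0.0153). This call rested on single libraries: without ABA library 3 the log2 change was 0.78 (adjusted p = 0.155), and without mock library 1 it was 0.97 (adjusted p = 0.078). Without mock library 1 of every line the adjusted p was 0.0601. In J0571 the pools had 3.5, 3.94 and 4.08 CPM with ABA, against 2.9, 2.75 and 1.68 CPM in mock. They did not overlap there either, but the log2 change of 0.66 ± 0.37 did not pass (adjusted p = 0.23), and it did when only the J0571 groups were fitted (0.65, adjusted p = 0.0485). The average over lines was a log2 change of 1.36 ± 0.19, or 2.57-fold (adjusted p = 1.51e-06).

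RVE8, the MYB activator of afternoon and evening genes, rose about 1.6-fold in each driver line. In Q0990 it had 5.94, 6.29 and 6.42 CPM with ABA, against 3.68, 4.09 and 3.69 CPM in mock. J1721 had 5.76, 8.74 and 7.75 CPM with ABA, against 3.83, 4.66 and 5.58 CPM in mock, and J0571 had 4.75, 6.34 and 5.94 CPM with ABA, against 3.36, 3.45 and 4.14 CPM in mock. The pools did not overlap in these 3 lines, and the log2 changes were 0.70 ± 0.17 in Q0990 (adjusted p = 0.00278 by edgeR), 0.65 ± 0.17 in J1721 (adjusted p = 0.00473) and 0.64 ± 0.17 in J0571 (adjusted p = 0.00748). In J0571 the call was lost without ABA library 2 (0.53, adjusted p = 0.0515). In C24 the levels were 6.3, 4.75 and 5.78 CPM with ABA and 4.82, 3.34 and 4.35 CPM in mock, and the pools overlapped. That log2 change of 0.43 ± 0.17 missed the threshold (adjusted p = 0.0574), whereas it passed without ABA library 2 (0.54, adjusted p = 0.0332), without mock library 1 (0.55, adjusted p = 0.0322), without mock library 1 of every line (0.55, adjusted p = 0.0319) and by DESeq2 (0.43, adjusted p = 0.0493). Over the 4 lines RVE8 was 1.52-fold higher.

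PRR9, the first pseudo-response regulator to appear in the day, was the morning gene without a called change. It had 0.69 to 2.17 CPM over the ABA libraries and 0.848 to 2.18 CPM over the mock libraries, and the pools overlapped in every line. Its log2 changes were 0.09 in J0571, -0.51 in J1721, 0.19 in Q0990 and -0.29 in C24, with standard errors of 0.37 to 0.38 and adjusted p of 0.349 to 0.898. Its average log2 change was -0.13, with a 95% interval from -0.52 to 0.26, and it was 0.04 without mock library 1 of every line. Its promoter, shown above, held more ABRE matches than that of CCA1 or LHY. A link between such matches and the ABA response was not tested.

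The day genes had no called change. PRR7, a repressor of CCA1 and LHY, had 7.72 to 15.6 CPM with ABA and 6.95 to 17.1 CPM in mock, with log2 changes of 0.06 in J0571, 0.09 in J1721, 0.23 in Q0990 and 0.06 in C24. PRR5, which follows it in the day, had 32.7 to 43.5 CPM with ABA and 28.8 to 45.5 CPM in mock, with log2 changes of 0.04 to 0.09. Mock library 1 held the highest PRR7 level of its group in 4 of 4 lines, and these are the libraries that lay away from the rest of their group. Without them the average log2 change passed for both genes, at 0.30 (adjusted p = 0.0268 by edgeR) for PRR7 and 0.13 (adjusted p = 0.0387) for PRR5, against 0.11 (adjusted p = 0.465) for PRR7 and 0.06 (adjusted p = 0.365) for PRR5 with all libraries.

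Among the evening genes TOC1 and GI had no called change, and their intervals were narrow. TOC1, a repressor of CCA1 and LHY, had 90.1 to 131 CPM with ABA and 92.9 to 131.2 CPM in mock. Its average log2 change was 0.07, with a 95% interval of -0.05 to 0.19. GI, a large protein that joins the clock to flowering, had 55.5 to 82.5 CPM with ABA and 55.2 to 84.0 CPM in mock, and its average log2 change was -0.01 (95% interval -0.15 to 0.12), or 0.05 without mock library 1 of every line. An average change of 1 on the log2 scale lies outside both intervals.

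LUX, the DNA-binding subunit of the evening complex, differed little in size but with a small spread. Q0990 had 82.4, 88.8 and 82.3 CPM with ABA, against 67.2, 68.7 and 71.5 CPM in mock, and C24 had 87.3, 89.7 and 81.8 CPM with ABA, against 74.7, 67.5 and 73.4 CPM in mock. The pools did not overlap in either line, and LUX was 1.22-fold higher in Q0990 (log2 change 0.29 ± 0.06, adjusted p = 8.86e-04 by edgeR) and 1.2-fold higher in C24 (0.26 ± 0.06, adjusted p = 0.00196). In J0571 (0.13 ± 0.06, adjusted p = 0.149) and J1721 (0.14 ± 0.06, adjusted p = 0.103) the change did not pass, although the J1721 pools did not overlap. The RefSeq gene model of LUX overlaps AT3G46650 on the opposite strand, the only such overlap among the 10 genes. AT3G46650 had 197 to 364 counts in ABA libraries and 43 to 151 in mock libraries, and LUX had 2958 to 4822 in ABA libraries and 2964 to 3851 in mock libraries. Since the strand setting of the counting is not given, reads of this neighbour may not have been told apart from those of LUX, and their part in its change was not tested.

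ELF4 was the only one of the 10 genes called lower in the average response, with a fall of 0.18 ± 0.05 on the log2 scale (adjusted p = 0.00288 by edgeR). In Q0990 it had 175, 179 and 150 CPM with ABA, against 201, 195 and 224 CPM in mock, without overlap. In J1721 it had 152, 169 and 159 CPM with ABA, against 167, 205 and 209 CPM in mock, and mock library 1 fell among the ABA pools. ELF4 fell by 0.30 ± 0.10 in Q0990 (adjusted p = 0.0202) and by 0.27 ± 0.10 in J1721 (adjusted p = 0.0389). Both calls depended on single libraries. In Q0990 the call was lost without ABA library 3 (-0.23, adjusted p = 0.124) or mock library 3 (-0.25, adjusted p = 0.0829). In J1721 it was lost without ABA library 1 (-0.24, adjusted p = 0.13), ABA library 3 (-0.27, adjusted p = 0.0786), mock library 2 (-0.23, adjusted p = 0.145) or mock library 3 (-0.21, adjusted p = 0.172). The log2 change was -0.12 in J0571 (adjusted p = 0.424) and -0.03 in C24 (adjusted p = 0.85), with overlapping pools in both, and the value in C24 was 0.09 without mock library 1 of every line.

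**Figure D2:**
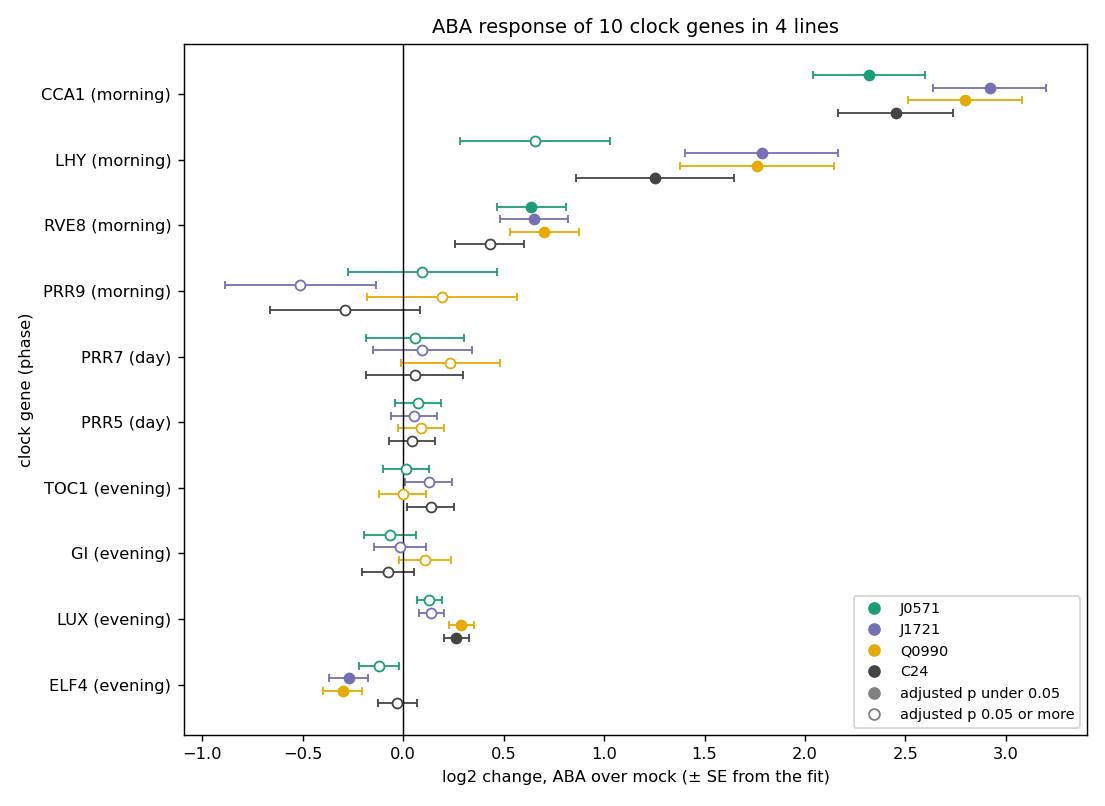
Log2 change of each clock gene, ABA over mock, with its standard error from the fit, in the 4 lines. Filled points have an adjusted p under 0.05. CCA1 is filled in all 4 lines, at 2.32 to 2.92, and the points of PRR7, PRR5, TOC1 and GI lie near 0.

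Counting pools rather than adjusted p-values gave a like picture. ABA and mock pools did not overlap for 3 of the 10 genes in J0571, against 37.4% of all genes tested. The number was 4 in J1721 (41.7% of all genes), 5 in Q0990 (44.3%) and 3 in C24 (43.1%). CCA1 and LHY were without overlap in 4 of 4 lines, RVE8 and LUX in 3, and ELF4 in 1. Ranked by mean, the 8 groups were ordered by treatment for CCA1, from J1721 ABA at 7.71 ± 1.05 CPM (SD, n = 3) down to J0571 ABA at 5.36 ± 1.08 CPM, then J0571 mock at 1.08 ± 0.356 CPM down to Q0990 mock at 0.957 ± 0.328 CPM. Only the step from J0571 ABA to J0571 mock had no overlap between neighbours. For LHY the mean was highest in J1721 ABA at 6.24 ± 2.20 CPM and lowest in C24 mock at 1.5 ± 0.58 CPM, and only Q0990 ABA and J0571 ABA were neighbours without overlap. RVE8 and LUX also had their 4 ABA groups above their 4 mock groups by mean, but all neighbours overlapped. For the other 6 genes every neighbour in the order overlapped too.

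The question of the crosses is whether blocking ABA signalling in the cells of a driver changes the response. For the clock genes the 3 driver lines were each compared with C24 in the same fit, so that the comparisons share the C24 libraries. No clock gene passed the test for a difference in ABA response: there were 0 in J0571 against C24 (0.403% of all genes), 0 in J1721 against C24 (0.169%) and 0 in Q0990 against C24 (0%). No clock gene had an unadjusted p under 0.05 in these 3 comparisons by edgeR, and DESeq2 also called 0. The intervals were wide for the scarce genes. For LHY the response in J0571 was lower than in C24 by a log2 difference of -0.60, with a 95% interval of -1.72 to 0.52, and in J1721 it was higher by 0.53 (-0.59 to 1.66). CCA1 gave -0.13 (-0.96 to 0.69) in J0571, 0.47 (-0.36 to 1.30) in J1721 and 0.34 (-0.49 to 1.18) in Q0990. These point estimates rested on single libraries. Without C24 ABA library 3 the LHY difference was -0.13 in J0571 and 1.00 in J1721, and over all libraries left out in turn it ran from -0.82 to -0.13 in J0571 and from 0.29 to 1.00 in J1721. Over all the alternatives run, the LHY difference in J1721 reached 1.19. With libraries left out in turn, the CCA1 difference ran from -0.36 to 0.09 in J0571, where it was 0.09 without J0571 mock library 1 and 0.07 without mock library 1 of every line, from 0.27 to 0.89 in J1721 and from 0.14 to 0.63 in Q0990. A log2 difference of 1 in size lies within the interval of LHY in each driver line. For the abundant genes they were narrower. LUX differed by -0.13 (-0.32 to 0.05) in J0571 and by -0.12 (-0.31 to 0.06) in J1721. ELF4 differed by -0.24 (-0.53 to 0.04) in J1721 and by -0.27 (-0.56 to 0.01) in Q0990, the lowest unadjusted p of the 30 values at 0.0606 (adjusted p = 0.943 by edgeR).

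**Figure D3:**
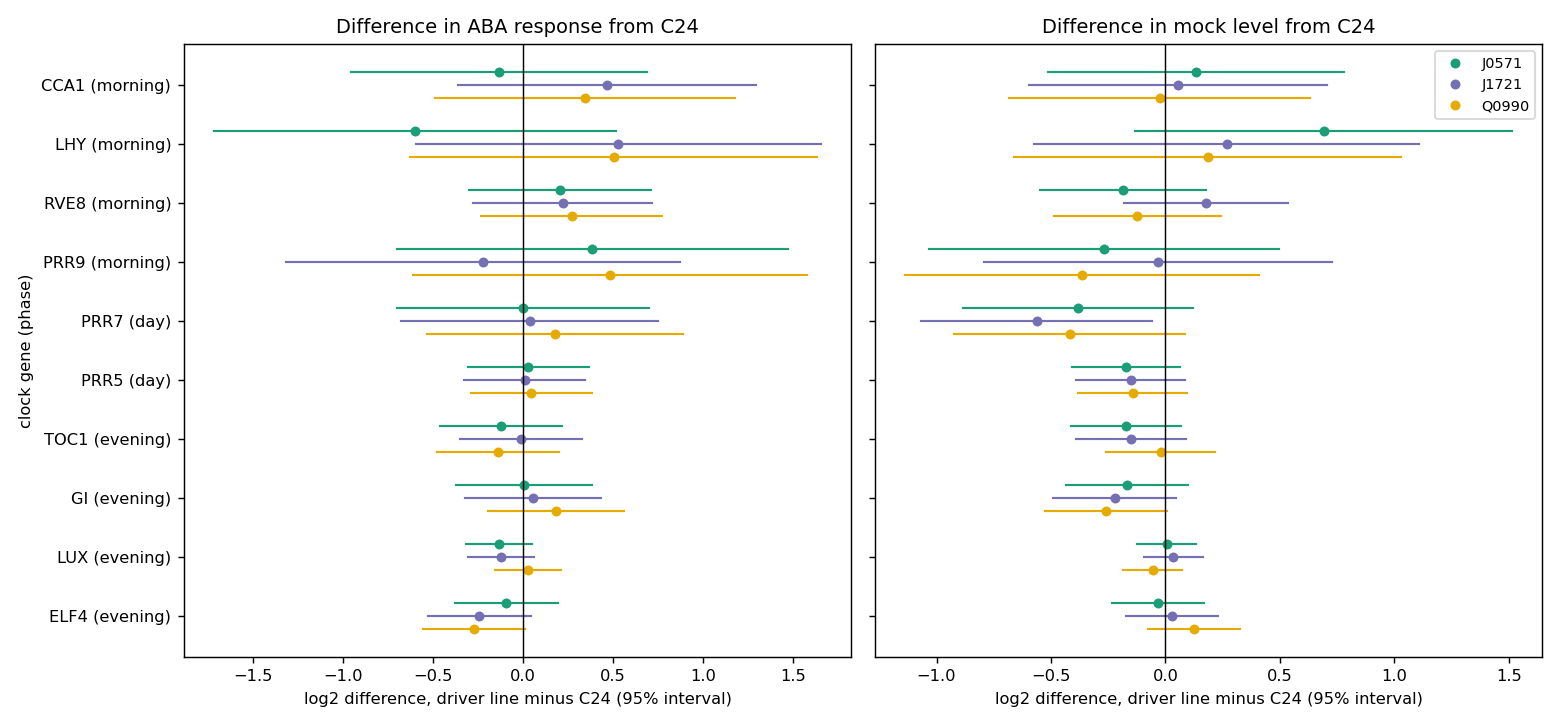
Log2 difference of each driver line from C24 with its 95% interval, in the ABA response (left) and in the mock level (right). All intervals of the ABA response include 0, and in mock libraries only that of PRR7 in J1721 does not.

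Mock levels of the clock genes were compared in the same way. Of the 10 genes, 0 passed in J0571 against C24 (0.474% of all genes), in J1721 against C24 (0.0422%) and in Q0990 against C24 (0.0469%), and DESeq2 called 0 in each. The only unadjusted p under 0.05 was that of PRR7 in J1721. PRR7 had 9.35, 8.87 and 9.07 CPM in J1721 mock, against 17.1, 12.5 and 10.8 CPM in C24 mock, a log2 difference of -0.56 (95% interval -1.07 to -0.06, adjusted p = 0.852 by edgeR). The pools did not overlap for PRR7 and GI in J1721 against C24, which was true of 10.7% of all genes. GI had 72.3, 67.6 and 63.3 CPM in J1721 mock and 78.3, 74.7 and 84.0 CPM in C24 mock. No clock gene was without overlap in J0571 (15.9% of all genes) or Q0990 (8.65%). PRR7 was lower than in C24 by point estimate in the other driver lines as well, at -0.38 in J0571 and -0.42 in Q0990, neither of which passed. All 3 values share the C24 mock libraries, and without C24 mock library 1, the one at 17.1 CPM, they were -0.17 in J0571, -0.36 in J1721 and -0.21 in Q0990. The largest mock difference in size by point estimate was that of LHY in J0571, which was higher than in C24 by 0.69 (adjusted p = 0.541 by edgeR). Over the alternatives run this difference lay between 0.27 and 0.90.

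Pools of the same group differed in their clock genes, and some pairs of genes had their highest level in the same pool. CCA1 and LHY were both highest in the same library in 7 of 8 groups, whereas 0.493% of all genes matched CCA1 and 1.16% matched LHY that often. In the remaining group, J1721 ABA, library 2 had the highest CCA1 and RVE8 of the group and the lowest LHY. PRR5 and TOC1 also shared their highest library in 7 of 8 groups (1.11% of genes matched PRR5 and 1.66% TOC1 that often). PRR7 and GI shared theirs in 6 of 8 (2.29% matched PRR7 and 2.25% GI). These were 3 of the 45 pairs of clock genes, and every other pair shared it in 5 groups or fewer. In the opposite direction, searched in both orders of the 45 pairs, the library with the highest PRR7 had the lowest RVE8 in 7 of 8 groups (0.469% of genes). The library with the highest LHY had the lowest ELF4 in 6 of 8 groups (5.66%). That with the highest TOC1 had the lowest LHY in 6 of 8 (5.42%), and that with the highest GI had the lowest RVE8 in 6 of 8 (2.87%). These were the highest counts of that search, and the reverse orders had lower ones. The library with the highest RVE8 had the lowest PRR7 in 4 of 8 groups and the lowest GI in 4 of 8 (28.2% each). That with the highest ELF4 had the lowest LHY in 3 of 8 (50%), and that with the highest LHY had the lowest TOC1 in 4 of 8 (31.1%). Both genes of a pair are read from the same libraries, and no test was made of these counts. Some of the patterns followed the library number across lines. Library 1 had the highest GI in 4 of 4 lines with ABA and 3 of 4 in mock. It had the highest PRR7 in 3 of 4 lines with ABA and 4 of 4 in mock, and the lowest RVE8 in 3 of 4 in each. The lowest PRR5 lay in library 3 in 4 of 4 lines with ABA and 3 of 4 in mock. A feature shared by libraries of the same number cannot be told apart from a link between genes. On the log2 scale the deviations from the group mean spanned -0.76 to 0.75 for LHY and -0.81 to 0.84 for PRR9, but only -0.11 to 0.10 for LUX.

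**Figure D4:**
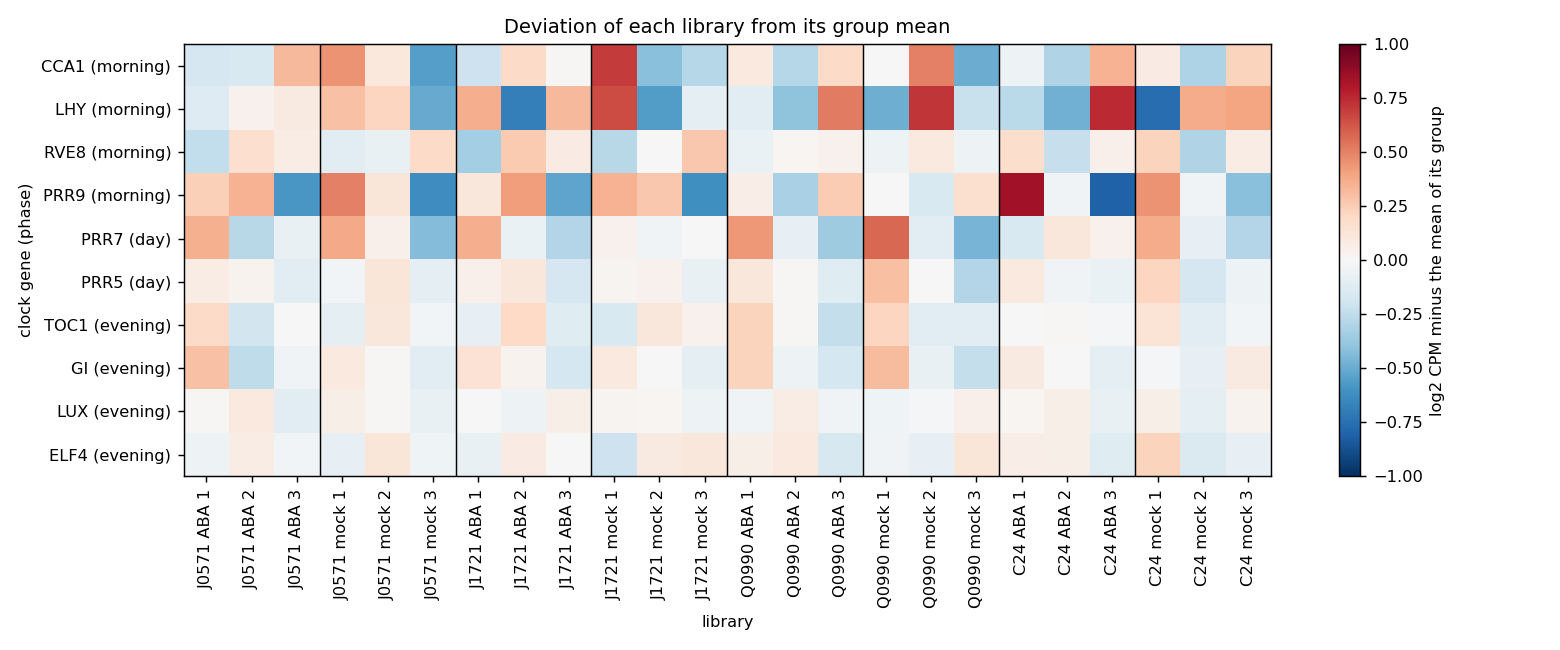
Deviation of each library from the mean of its group, in log2 CPM, for the clock genes (down) in the 24 libraries (across, in groups of 3 with ABA left of mock in each line). CCA1 and LHY are highest in the same library in 7 of 8 groups, and the row of LUX is pale, with deviations of -0.11 to 0.10.

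The genes whose pool-to-pool deviations were most like those of each clock gene were listed as a description, by Pearson's r over 24 libraries and with no test. Each was picked as the highest or next highest r among 17414 genes (17415 for PRR9), and no link between genes is read from it. PRR5 was the one whose closest gene belongs to the clock system: FKF1, an F-box photoreceptor, at r = 0.861, followed by the ABA-pathway bZIP gene ABF1 at 0.838. ELF4 had the highest values, with PR4 at 0.962 and DER2.1 at 0.949. LHY was closest to iPGAM1 at 0.904, TOC1 to AT3G26720 at 0.888, RVE8 to AT4G10300 at 0.878, PRR7 to CRCK1 at 0.854, LUX to AT2G41410 at 0.849, GI to XLG3 at 0.841, PRR9 to POP4 at 0.832 and CCA1 to ERF1-1 at 0.788. For log2 CPM itself, which contains the treatment, CCA1 was closest to AT3G02480 and SAG29, both at 0.974, LHY to NDB2 at 0.94, LUX to AT5G62570 at 0.916, RVE8 to AT1G18460 at 0.908 and ELF4 to AT5G21020 at 0.897.

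A wider list of clock-linked genes gives the setting for the 10. Of 35 written, 5 were dropped because the written symbol was not matched among the RefSeq names of the locus. RefSeq's symbol is the locus identifier itself for RVE6, COR28 and CDF5, and ELF4-L1 and ELF4-L3 for EFL1 and EFL3. Of the remaining 30, 29 were tested, since PIF4, a gene of growth control under the clock, did not pass the filter. In the average response 12 of the 29 rose (27.6% of all genes did) and 6 fell (27.6%). Between 8 and 12 of the 29 rose in a single line, against 14.4% to 18.6% of all genes. Between 1 and 4 fell, against 9.87% to 15.4%. Those that rose in all 4 lines were RVE1, RVE2, LNK1, BOA, CHE and COR27, and GRP8 fell in all 4. The share of all genes that did so in all 4 lines was not counted. None passed in the differences from C24 in response or in mock level. By edgeR 2, 1 and 1 of them had an unadjusted p under 0.05 in the differences in response of J0571, J1721 and Q0990, and 4, 3 and 0 in the mock levels, and DESeq2 called 0 in all 6 comparisons.

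COR27, a cold-induced repressor of evening genes, had the largest change of this list, at 13.5 to 23.9 CPM over the ABA libraries and 3.53 to 6.60 CPM over the mock libraries. Its average log2 change was 1.91 ± 0.09 (adjusted p = 1.29e-14 by edgeR). Among the relatives of CCA1 and RVE8, RVE2 rose by 1.12 ± 0.08 and RVE1, which links the clock to auxin, by 0.78 ± 0.09, whereas RVE7 fell by 0.51 ± 0.07 and RVE4, the nearest relative of RVE8 on the list, did not pass (0.13 ± 0.07, adjusted p = 0.0917). RVE2 had 89.9 to 163 CPM with ABA and 44.0 to 70.2 CPM in mock. The LNK genes encode co-activators that work with RVE8. LNK1 rose by 0.69 ± 0.05, LNK4 by 1.53 ± 0.27 and LNK3 by 1.33 ± 0.27, both of the last from levels under 1.2 CPM in every library, and LNK2 did not pass (-0.10 ± 0.08). LNK3 passed in J0571, Q0990 and C24 but not in J1721, where it had 0.348 ± 0.116 CPM with ABA and 0.297 ± 0.131 CPM in mock (SD, n = 3 each), against 0.816 ± 0.27 CPM with ABA and 0.215 ± 0.122 CPM in mock in C24. The difference in its response between J1721 and C24 did not pass (adjusted p = 0.999 by edgeR).

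Beside LUX, its close relative BOA rose by 0.75 ± 0.08, while ELF3, the scaffold of the evening complex, did not pass (-0.11 ± 0.06, adjusted p = 0.0891). CHE, a TCP factor that represses CCA1, rose by 0.47 ± 0.05, and the histone demethylase gene JMJD5 fell by 0.33 ± 0.06. PRR3, the pseudo-response regulator outside the 10, fell by 0.20 ± 0.06. Of the F-box photoreceptors, FKF1 fell by 0.20 ± 0.08, and ZTL (-0.01 ± 0.04) and LKP2 (0.11 ± 0.05) did not pass. Among the outputs of the clock, the RNA-binding protein genes GRP8 and GRP7 fell by 0.47 ± 0.03 and 0.14 ± 0.04, and the DOF factor genes CDF1, CDF2 and CDF3, repressors of flowering time genes, rose by 1.24 ± 0.17, 0.21 ± 0.06 and 0.66 ± 0.08.

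**Figure D5:**
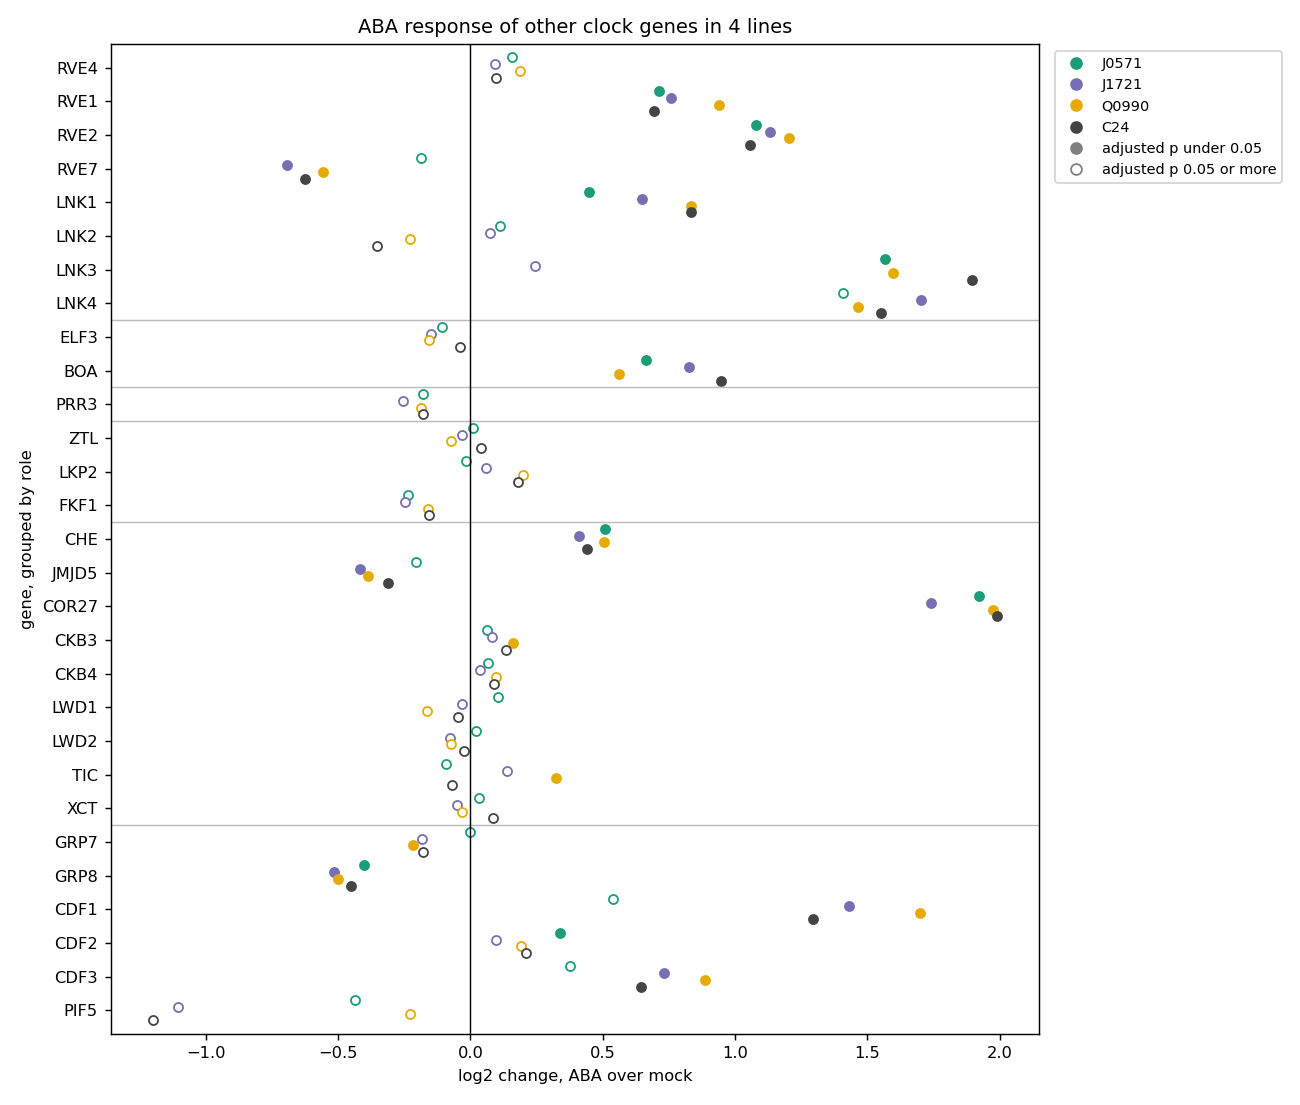
Log2 change, ABA over mock, of 29 other clock-linked genes in the 4 lines, grouped by role. Filled points have an adjusted p under 0.05. COR27 lies furthest right in all lines, and RVE2, RVE1, LNK1, BOA and CHE are filled right of 0 in all 4.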

How the data were processed

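RNA of 24 pools of roots, 3 in each of 8 groups, was sequenced from both ends, at 150 bases a read (per the labels' protocols). The table the authors deposited holds raw counts per gene, made with HISAT2 and HTSeq per the submitters' processing notes, whose versions, genome build, annotation and strand setting are not given. Depth was 38542817 to 61555387 counts per library. No pair of replicates was close to counting noise (chi-square over its degrees of freedom at least 6.79, at most 34.8).

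Normalization used the trimmed mean of M values. One quasi-likelihood model in edgeR 4.0.16 (with limma 3.58.1 under R 4.3.3) had 8 group means over all libraries, and its filter kept 21315 genes. Adjustment was by the Benjamini-Hochberg method within each of 11 comparisons. Levels are CPM on normalized library sizes, and differences in response are interaction terms. Alternatives were the size factors of DESeq2 1.42.0, the DESeq2 test, no filter, a replicate block, only the groups compared, leaving out each library, and leaving out mock library 1 of every line. The model was tested on simulated counts with known changes in the C24 ABA response only. Those changes were larger than that of LUX or ELF4, and differences between lines were not simulated. Promoters and gene models came from RefSeq TAIR10.1 (Python 3.11.15, pandas 2.3.3).

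The members, the wider list of clock-linked genes, the markers and the tests were chosen with earlier results of these data known. By rule, the text names the 10 members, genes of that list and of the marker lists, ABI1 and RD29B, and, for each member, the most alike genes with a mean log2 CPM of at least 1. AT3G46650 was named after its overlap with LUX was seen.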

Additional observations from a re-analysis of the deposited data

How the results depend on the processing

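The number of the 10 clock genes called was the same under DESeq2's size factors, without the filter and with a replicate block (2 in J0571, 4 in J1721, 5 in Q0990, 3 in C24, 5 in the average and 0 in each difference in response and in mock level). Over all genes, deviations of same-numbered ABA and mock libraries of a line had r of -0.0594 to 0.0816 in 12 pairs of libraries. Of these 12, 7 were best with their own number. As all r were low, the numbers were not taken to pair the samples. Libraries of the same number in different lines were not compared in this way, so a feature shared by number across lines is not excluded. DESeq2's test gave 4 in C24 and otherwise the same numbers, fitting only the groups compared gave 3 in J0571, and leaving out mock library 1 of every line gave 7 in the average. Leaving out 1 library gave 1 to 2 in J0571, 3 to 4 in J1721, 4 to 5 in Q0990, 2 to 4 in C24, 5 in the average and 0 in every difference. Changed calls of single genes stand beside them above, and the cause was not tested. No called change turned its direction under any alternative run. Signs changed in 131 uncalled values, none of which exceeded 0.292 in size in the main result. Another scaling moved the median of all genes by at most 0.02 in size. With Spearman's rho in place of Pearson's r, 17 of 30 most alike genes were shared.

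Counts over all genes moved more. The difference in response called 86 genes in J0571, against 194 by DESeq2, 57 without mock library 1 of every line and 57 to 90 without 1 library. In J1721 it called 36, against 67 by DESeq2, 15 with only the groups compared, 10 without mock library 1 of every line and 8 to 34 without 1 library. In Q0990 it called 0, against 2 by DESeq2, 1 without the filter and 0 to 1 without 1 library. The mock level called 101 in J0571, against 279 by DESeq2, 39 with only the groups compared, 22 without mock library 1 of every line and 26 to 77 without 1 library. In J1721 it called 9, against 47 by DESeq2, 5 without mock library 1 of every line and 5 to 9 without 1 library. In Q0990 it called 10, against 17 by DESeq2 and 6 to 17 without 1 library. At 27 to 66 counts in mock libraries, CCA1 is also limited by counting error, and differences between lines in CCA1, LHY and PRR9 are known only within the wide intervals given above.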
